A study of Mus musculus with 6 samples.

Results

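The genes described here make, break down and read cyclic AMP in isolated pancreatic islets of C57BL6 mice. They were taken by name: the adenylyl cyclases (Adcy), the cyclic nucleotide phosphodiesterases (Pde), the catalytic and regulatory subunits of protein kinase A (PKA), the A-kinase anchoring proteins (Akap), the exchange factors Rapgef3 and Rapgef4, and the transcription factors and coactivators Creb1, Crem, Atf1, Crtc1, Crtc2 and Crtc3. This gave 63 of the 48321 names in the deposited table. RNA sequencing compared 3 samples from mice on normal chow with 3 from mice on a high-fat diet with 60 percent of calories from fat, fed for 4 months from the age of 3 months. All samples are labelled WT (wild type). The labels give no age for the chow mice, and they do not say whether a sample came from 1 animal or from pooled islets.

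Cyclic AMP is made from ATP by adenylyl cyclases, which stimulatory G proteins switch on and inhibitory G proteins restrain, and it is hydrolysed by phosphodiesterases. In beta cells it binds the regulatory subunits of PKA, which frees the catalytic subunits, and it activates the exchange factor encoded by Rapgef4. Both routes strengthen the insulin release that glucose starts, and incretin hormones act through them. Anchoring proteins hold PKA near its substrates, and in the nucleus PKA acts through CREB and its coactivators.

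Values are CPM, that is reads scaled to a library total, and an added 1, inferred from the values, was subtracted. Summed over all genes in the table, the CPM were not equal between libraries. The sums were 841705 and 674482 CPM in chow and 963615, 832416 and 879301 CPM in high-fat libraries. The implied depth was about 18800000 to 35000000 reads, and 3 reads corresponded to 0.0856 to 0.16 CPM, a floor that covers counting error only. The column of chow replicate 2 equalled the average of chow replicate 1 and chow replicate 3 in 48321 of 48321 rows (within a relative difference of 1e-05), so every fit and mean below uses 2 chow and 3 high-fat libraries. RNAs without a poly(A) tail (Rn7sk, Rpph1, Rmrp, Rn7s1 and Rn7s2) together summed to 9.12 and 16 CPM in the chow libraries. In the high-fat libraries they summed to between 20791 and 31337 CPM. The labels do not give the library preparation, so a difference in the kind of library is inferred from these RNAs only. All chow sample titles begin with BS and all high-fat titles with RA. For every gene below, such a difference and the diet cannot be told apart. Beta cell markers were present at 57623 to 80115 CPM in chow and 87653 to 95727 CPM in high-fat libraries. The summed level of 34 acinar genes ran from 92398 to 305668 CPM in chow and from 15470 to 132292 CPM in high-fat libraries. In these bulk samples, fewer cells of a type and less RNA per cell cannot be told apart.

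Of the 63 genes, 53 had a mean of at least 0.5 CPM and were tested. With limma on log2(CPM + 1), 13 were higher and 5 lower in high-fat islets at a Benjamini-Hochberg adjusted p below 0.05 over all 16939 genes tested. These are 24.5% and 9.43% of the tested cAMP genes, against 14.9% of all genes called higher and 8.78% called lower. The lower share is near its background. The libraries of the diets did not overlap for 20 cAMP genes that lay higher and 13 that lay lower, or 37.7% and 24.5%, against 32.8% and 22.5% of all genes, which is again near the background. The median log2 difference was 0.08 for the cAMP genes and 0.05 for all genes. The number higher fell to 6 without high-fat replicate 2 and to 7 without high-fat replicate 3, while the number lower was 4 in both cases. Over all genes, the shares called higher were then 7.01% and 7.27%, and those called lower 4.07% and 4.39%. The 10 genes under the filter (Akap3, Akap4, Akap14, Pde6a, Pde6b, Pde6c, Pde6g, Pde6h, Pde9a and Pde11a) lay between 0 and 0.648 CPM in all 5 libraries. They include the rod and cone phosphodiesterase subunits of the retina.

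**Figure D1:**
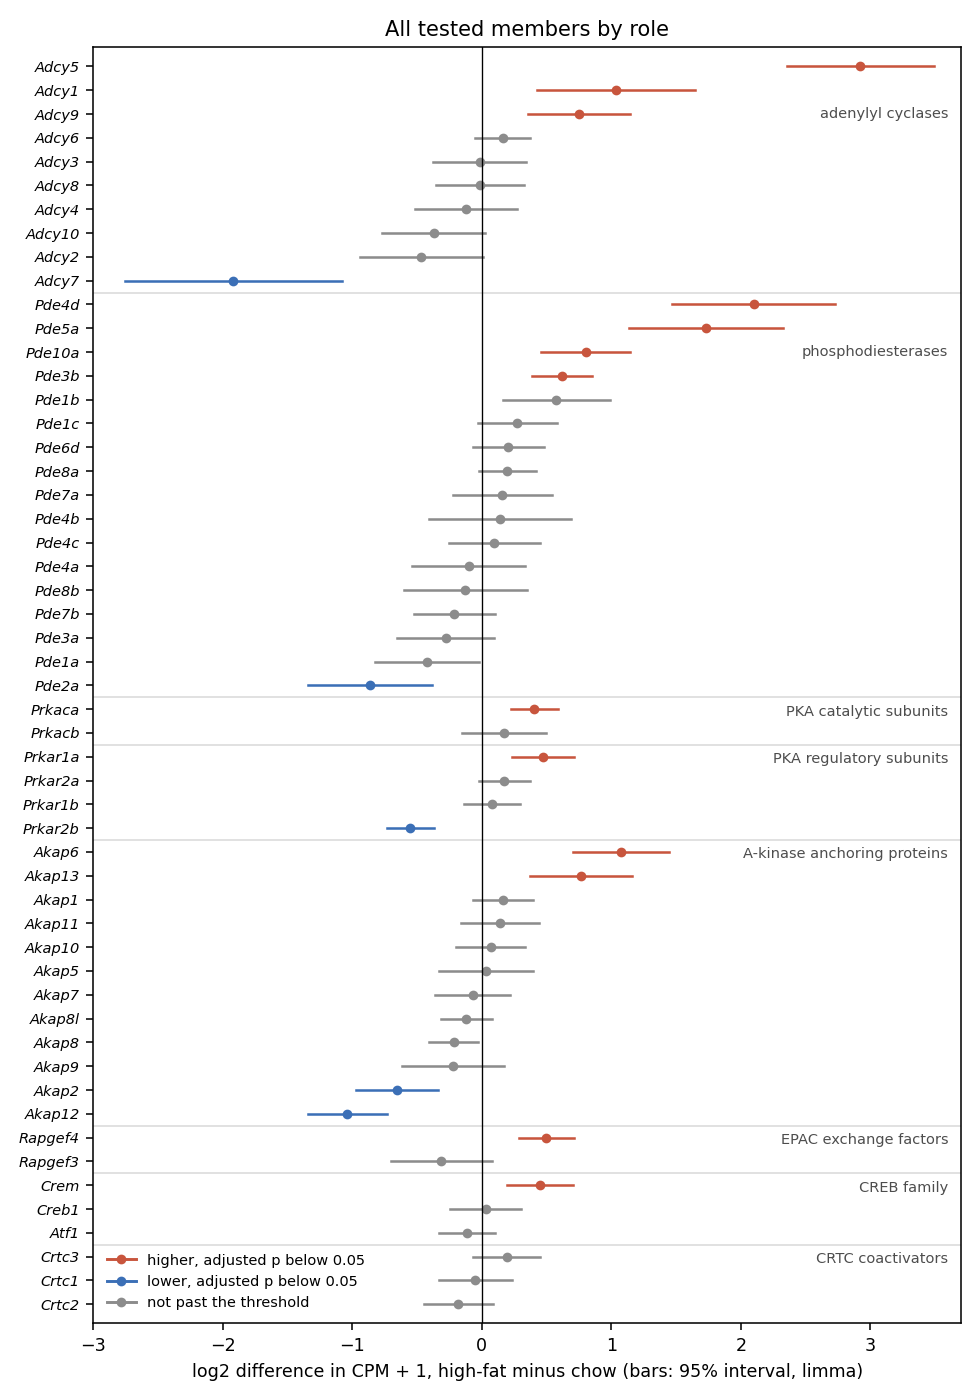
Log2 difference in CPM + 1 (high-fat minus chow) with its 95% interval from limma for the 53 tested cAMP genes, grouped by role. The 13 higher genes are in red, the 5 lower in blue, and the 35 not past the threshold in grey. Adcy5 lies farthest to the right at 2.92 and Adcy7 farthest to the left at -1.92.

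Among the 10 adenylyl cyclases, Adcy5, Adcy1 and Adcy9 were higher and Adcy7 was lower in high-fat islets. Adcy5, a membrane cyclase inhibited by calcium, was 4.12 CPM in chow replicate 1 and 3.81 CPM in chow replicate 3, and it was 29.5, 31.3 and 53 CPM in high-fat replicates 1, 2 and 3, the order used throughout. The lowest high-fat library stood far above both chow libraries. The means were 3.96 ± 0.214 CPM (SD, n = 2) and 37.9 ± 13.1 CPM (SD, n = 3), a log2 difference of 2.92 ± 0.24 (SE, limma adjusted p = 0.000424). Adcy5 was the member with the largest difference in either direction. With no filter on low values limma's adjusted p was 0.0504.

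Adcy9, a cyclase with weak sensitivity to forskolin, was at 35.2 and 54 CPM in chow and at 69.7, 75.8 and 76.7 CPM in high-fat islets. The chow libraries were unequal and both lay below the high-fat libraries, for a log2 difference of 0.75 ± 0.17 (SE, limma adjusted p = 0.0215). Adcy1, which calcium and calmodulin stimulate, was at 4.8 and 2.15 CPM in chow and at 6.69, 8.17 and 8.51 CPM in high-fat islets (1.03 ± 0.26, SE, limma adjusted p = 0.0303). Its chow libraries differed more from each other than the high-fat libraries did. Adcy9 lost its call without high-fat replicate 1, 2 or 3 (limma adjusted p = 0.0516, 0.0706 and 0.0725), and its log2 difference was 0.45 without chow replicate 1. Adcy1 lost its call without high-fat replicate 1, 2 or 3 (limma adjusted p = 0.0577, 0.0901 and 0.0938) and without chow replicate 3 (0.0604, with a log2 difference of 0.59).

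Adcy7, a cyclase well known from blood cells, was at 22.3 and 8.75 CPM in chow and at 3.62, 2.23 and 3.23 CPM in high-fat islets. Chow replicate 1, which also had the highest acinar level, stood apart, and the diets did not overlap. The log2 difference was -1.92 ± 0.35 (SE, limma adjusted p = 0.0114). When the summed acinar level was a covariate, limma's adjusted p for Adcy7 remained below 0.05. That fit rests on 5 libraries, and the part of acinar content in the Adcy7 difference was not tested.

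The remaining cyclases did not pass the threshold. Adcy6, also inhibited by calcium and the most abundant cyclase per kb of exon (12.7 CPM per kb over the 5 libraries), was at 76.2 and 85.2 CPM in chow and at 86.6, 88.8 and 95.4 CPM in high-fat islets. All 3 high-fat libraries were above both chow libraries by a small margin, and the 95% interval of the log2 difference ran from -0.05 to 0.37. Adcy3, a cyclase of olfactory and islet cells, was at 6.53 and 6.38 CPM in chow and between 5.4 and 7.41 CPM in high-fat islets, with an interval from -0.38 to 0.34. It shares 1380 exon bases with Cenpo on the opposite strand, so its level is uncertain. Adcy8, which calcium and calmodulin stimulate as they do Adcy1, was at 0.855 and 0.91 CPM in chow and between 0.835 and 0.878 CPM in high-fat islets (interval -0.36 to 0.32). Adcy2, Adcy4 and the soluble, bicarbonate-sensitive Adcy10 had means below 3 CPM in both diets.

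Of 24 phosphodiesterase genes, 17 were tested, and Pde4d, Pde5a, Pde10a and Pde3b were higher and Pde2a lower in high-fat islets. Pde4d, which is specific for cyclic AMP and the target of rolipram, was at 8.15 and 9.63 CPM in chow and at 62, 36.4 and 31 CPM in high-fat islets. High-fat replicate 1 was the highest, and every high-fat library exceeded both chow libraries by a wide margin. The log2 difference was 2.1 ± 0.27 (SE, limma adjusted p = 0.003). Its paralog Pde4b did not pass the threshold, with 30.2 and 17.1 CPM in chow and 22.1, 29.8 and 24.3 CPM in high-fat islets (95% interval -0.41 to 0.69). The chow libraries of Pde4b lay on both sides of the high-fat libraries. Within a library, where scaling cancels, Pde4d stood at 0.237 and 0.496 times the level of Pde4b per kb in chow and at 2.47, 1.07 and 1.13 times in high-fat islets.

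Pde5a, which hydrolyses cyclic GMP and is the target of sildenafil, was at 79.7 and 149 CPM in chow and at 365, 413 and 321 CPM in high-fat islets. The chow libraries differed from each other and both were far below the high-fat libraries (1.73 ± 0.25, SE, limma adjusted p = 0.00497). Pde3b, the phosphodiesterase that insulin activates in fat and islet cells, was at 120 and 125 CPM in chow and at 181, 179 and 206 CPM in high-fat islets. Both groups were tight and apart, for a log2 difference of 0.62 ± 0.1 (SE, limma adjusted p = 0.00696). Pde10a, which acts on both cyclic nucleotides and is best known from the striatum, was at 11 and 15 CPM in chow and at 21.1, 25.7 and 22.8 CPM in high-fat islets (0.8 ± 0.15, SE, limma adjusted p = 0.0113). The diets did not overlap for either gene.

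Pde2a, a dual phosphodiesterase that cyclic GMP stimulates, was the only phosphodiesterase lower by the test. Its levels were 15.3 and 10.8 CPM in chow and 7.73, 5.19 and 7.14 CPM in high-fat islets (-0.87 ± 0.2, SE, limma adjusted p = 0.0247). No high-fat library reached the lower chow library. The call ended without chow replicate 1 (limma adjusted p = 0.123), without high-fat replicate 2 (0.0645), without high-fat replicate 3 (0.0619) and with the acinar level as a covariate (0.108, log2 difference -0.52). GENCODE M21 places 3955 exon bases of Pde2a under a second gene on the same strand, so its reads may have been split between them.

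**Figure D2:**
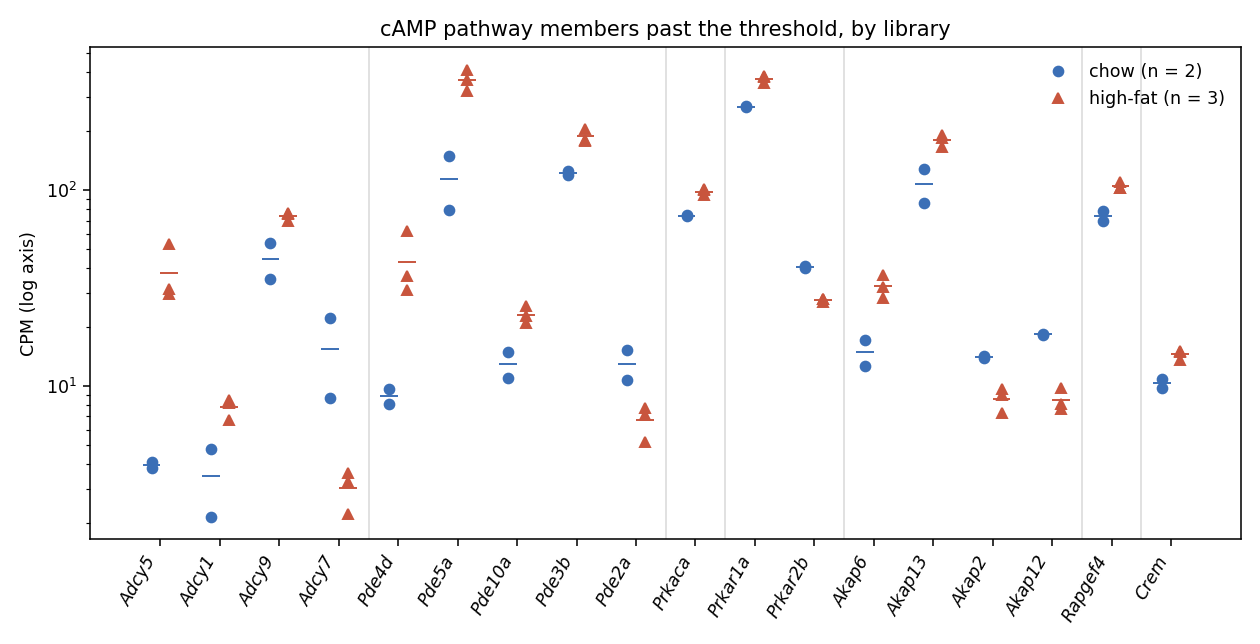
CPM on a log axis for the 18 cAMP genes past the threshold, in each of 2 chow (circles) and 3 high-fat (triangles) libraries, with short lines at the group means and grey lines between roles. Adcy5 shows the widest gap between the diet means, and Prkaca, Prkar1a and Crem the narrowest among the higher genes.

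The other 12 tested phosphodiesterases did not pass the threshold, and their log2 differences ran from -0.42 to 0.57. Nearest to it was Pde1b, a calcium and calmodulin dependent enzyme, with 1.49 and 2.1 CPM in chow and 2.65, 3.38 and 3.4 CPM in high-fat islets (limma adjusted p = 0.0541). Pde1c, of the same family and described in beta cells, was at 19.4 and 18.7 CPM in chow and at 23.4, 19.9 and 26.8 CPM in high-fat islets (95% interval -0.03 to 0.58). For both genes the high-fat libraries lay above the chow libraries. The cyclic AMP specific Pde8a, the third among phosphodiesterases per kb of exon, was at 43.5 and 49.9 CPM in chow and between 50.8 and 56.1 CPM in high-fat islets (interval -0.02 to 0.41). Pde4a (-0.54 to 0.34), Pde7a (-0.23 to 0.54) and Pde8b (-0.61 to 0.35), all specific for cyclic AMP, had intervals on both sides of 0. Of the others, Pde1a had a log2 difference of -0.42 (interval -0.83 to -0.02, limma adjusted p = 0.115), and the intervals of Pde3a, Pde4c and Pde7b held 0. Pde6d, at 11.6 to 14.7 CPM, encodes a carrier of lipid-modified proteins and not a catalytic subunit.

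In PKA, the catalytic subunit gene Prkaca and the regulatory subunit gene Prkar1a were higher in high-fat islets, and the regulatory subunit gene Prkar2b was lower. Prkar2b, a type II regulatory subunit of fat, brain and endocrine cells, was at 40.3 and 41.3 CPM in chow and at 27.8, 26.9 and 27.8 CPM in high-fat islets. Libraries of 1 diet agreed closely and the diets stood apart (-0.55 ± 0.08, SE, limma adjusted p = 0.00414). It kept this call in all 17 alternative analyses, the only member to do so. Prkar1a, the main type I regulatory subunit, was at 268 and 265 CPM in chow and at 355, 381 and 377 CPM in high-fat islets. Chow libraries again agreed closely, below all high-fat libraries (0.47 ± 0.1, SE, limma adjusted p = 0.0194). Prkaca was at 73.7 and 74.7 CPM in chow and at 94.8, 99.9 and 101 CPM in high-fat islets (0.4 ± 0.08, SE, limma adjusted p = 0.0129).

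The call of Prkar1a ended without high-fat replicate 1, 2 or 3 (limma adjusted p = 0.0572, 0.0781 and 0.0759), and that of Prkaca without high-fat replicate 2 or 3 (0.0574 and 0.0545). The second catalytic gene, Prkacb, did not pass the threshold, at 385 and 465 CPM in chow and 444, 497 and 489 CPM in high-fat islets (95% interval -0.15 to 0.49). Neither did Prkar1b, a type I subunit of neurons and islets (92.7 and 87.7 CPM in chow, 89 to 102 CPM in high-fat islets, interval -0.14 to 0.29), or Prkar2a (32.1 and 35.6 against 37 to 39.3 CPM, interval -0.03 to 0.37). Within a library, the ratio of Prkar2b to Prkar1a per kb was 0.178 and 0.184 in chow and 0.0834 to 0.0929 in high-fat islets. Type I subunits made up 84.3% and 83.3% of the regulatory CPM per kb in chow, and 88.4%, 89.6% and 89.3% in high-fat islets. The ratio of catalytic to regulatory CPM per kb overlapped, at 0.717 and 0.819 in chow and 0.744 to 0.766 in high-fat islets.

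Promoter sequences are shown for the higher genes that carry letters of the cyclic AMP response element, the site bound by CREB, CREM and ATF1, and for Adcy5, which had the largest difference. RefSeq (GRCm38.p6) gave 50 of the 63 genes at least 1 window of the 250 bases before a start. The palindrome TGACGTCA occurred in a window of 1 of these 50 genes (2%) and of 1.77% of all 27025 genes with a window. Its short form, TGACG or CGTCA on the other strand, which the palindrome contains, occurred in 14 of the 50 (28%) and in 19.8% of all genes. Genes with several starts have several windows, 6 in the case of Prkar1a. Counted by window, the short form was in 16 of 92 windows of these genes (17.4%) and in 17.8% of all 32851 windows, and the palindrome in 1.09% and 1.55%. Among the higher genes with a window, 3 of 11 held a short form (Adcy9, Prkaca and Prkar1a), and among the lower, 1 of 3 (Adcy7). The windows below end 1 base before a start and capitals mark the matches. For each gene the window with the most matches is printed. Of the other Prkar1a windows, some held a short form, beginning at -100 or -151 relative to their starts, and the rest held neither form. The other Prkaca window held neither form. A match is a description of letters, and a lack of one says only that these letters are not in this window.
Prkar1a, chr11:109650699-109650948, plus strand: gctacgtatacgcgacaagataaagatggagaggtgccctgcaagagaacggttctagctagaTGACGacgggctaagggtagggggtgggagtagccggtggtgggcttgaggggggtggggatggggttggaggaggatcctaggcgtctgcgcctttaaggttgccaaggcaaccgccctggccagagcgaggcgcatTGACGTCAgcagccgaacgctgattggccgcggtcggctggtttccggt
Prkaca, chr8:83972728-83972977, plus strand: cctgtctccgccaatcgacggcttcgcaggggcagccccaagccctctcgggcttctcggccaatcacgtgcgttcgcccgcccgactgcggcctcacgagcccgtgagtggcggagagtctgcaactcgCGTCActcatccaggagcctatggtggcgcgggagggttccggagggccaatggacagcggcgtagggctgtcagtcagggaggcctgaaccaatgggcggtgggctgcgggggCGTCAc
Adcy9, chr16:4420499-4420748, minus strand: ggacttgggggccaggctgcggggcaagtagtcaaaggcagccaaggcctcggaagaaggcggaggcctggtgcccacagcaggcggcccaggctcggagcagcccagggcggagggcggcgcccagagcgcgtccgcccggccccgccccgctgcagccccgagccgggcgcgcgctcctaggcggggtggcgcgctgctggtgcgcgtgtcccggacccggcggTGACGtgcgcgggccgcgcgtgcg
Adcy5, chr16:35154614-35154863, plus strand: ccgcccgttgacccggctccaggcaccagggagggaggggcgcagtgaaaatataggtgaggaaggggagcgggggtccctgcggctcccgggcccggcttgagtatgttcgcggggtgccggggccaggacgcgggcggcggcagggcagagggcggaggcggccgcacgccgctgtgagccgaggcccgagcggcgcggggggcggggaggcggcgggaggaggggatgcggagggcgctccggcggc
In the Prkar1a window the palindrome begins 49 bases before the start and a further short form 187 bases before it. Prkaca has short forms beginning 120 and 6 bases before the start, and Adcy9 has 1 beginning 24 bases before it. The Adcy5 window held neither form.

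Of 15 anchoring protein genes, 12 were tested, with Akap6 and Akap13 higher and Akap12 and Akap2 lower in high-fat islets. Akap6, an anchor at the nuclear envelope of heart muscle and neurons, was at 12.7 and 17.3 CPM in chow and at 28.3, 36.8 and 32.2 CPM in high-fat islets (1.07 ± 0.16, SE, limma adjusted p = 0.00506). Akap13, a large anchoring protein, was at 86.6 and 128 CPM in chow and at 166, 184 and 191 CPM in high-fat islets (0.77 ± 0.17, SE, limma adjusted p = 0.0195). All high-fat libraries exceeded both chow libraries for these genes. Akap13 lost its call without high-fat replicate 2 or 3 (limma adjusted p = 0.0666 and 0.0689), and its log2 difference was 0.49 without chow replicate 1 and 0.5 with length and GC trends removed.

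Akap12, a scaffold also called gravin, was at 18.3 and 18.4 CPM in chow and at 7.6, 8.07 and 9.77 CPM in high-fat islets. The chow libraries were nearly equal and far above every high-fat library (18.4 ± 0.0807 against 8.48 ± 1.14 CPM, SD, n = 2 and 3), and the log2 difference was -1.04 ± 0.13 (SE, limma adjusted p = 0.00263). Akap2 was at 14.3 and 13.9 CPM in chow and at 7.33, 8.99 and 9.62 CPM in high-fat islets (-0.65 ± 0.13, SE, limma adjusted p = 0.0164). It lost its call without chow replicate 1 (limma adjusted p = 0.07). Akap2 shares 6891 exon bases on the same strand with Pakap in GENCODE M21, so the division of reads between them is uncertain, and Pakap was at 3.14 and 3.11 CPM in chow and at 5.74, 3.63 and 5.39 CPM in high-fat islets.

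The 8 other tested anchoring proteins had log2 differences from -0.23 to 0.16. Akap11, the most abundant per kb of exon at 15.5 CPM per kb, was at 143 and 179 CPM in chow and 160, 187 and 184 CPM in high-fat islets (95% interval -0.16 to 0.44). Akap1, which holds PKA at mitochondria, was at 15.6 and 15.4 CPM in chow and at 18.8, 16.3 and 17.5 CPM in high-fat islets (interval -0.07 to 0.4). Akap5, an anchor of PKA and calcineurin at the plasma membrane, was below 1 CPM in all libraries (interval -0.33 to 0.4). The intervals of Akap7, Akap8l, Akap9 and Akap10 also held 0. For Akap8 the libraries of the diets did not overlap (30.5 and 31.6 CPM in chow, 25.7 to 27.2 CPM in high-fat islets, limma adjusted p = 0.0891).

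Among the readers of cyclic AMP other than PKA, Rapgef4 was higher in high-fat islets and Rapgef3 did not pass the threshold. Rapgef4, the exchange factor of beta cell exocytosis, was at 69.5 and 78.8 CPM in chow and at 102, 110 and 102 CPM in high-fat islets. Both groups were narrow and apart (0.5 ± 0.09, SE, limma adjusted p = 0.0111), and without high-fat replicate 2 the adjusted p was 0.0504. Rapgef3, the related factor of vessels and other tissues, was at 8.66 and 7.61 CPM in chow and at 5.12, 7.21 and 6.85 CPM in high-fat islets (95% interval -0.7 to 0.07). The ratio of Rapgef4 to Rapgef3 per kb was 7.61 and 9.82 in chow and 14.2 to 18.9 in high-fat islets.

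Of the nuclear effectors, only Crem passed the threshold. Crem, whose products include the repressor ICER, was at 9.84 and 10.9 CPM in chow and at 14.9, 13.6 and 15.1 CPM in high-fat islets (0.45 ± 0.11, SE, limma adjusted p = 0.0262). Crem shares 472 exon bases with Gm6225 on the opposite strand, so its level is uncertain. Gm6225 was at 0.798 and 0.819 CPM in chow and at 1.55, 1.92 and 2.03 in high-fat islets (0.64 ± 0.16, SE, limma adjusted p = 0.0277). The part of this overlap in the Crem difference was not tested. The table holds 1 value per gene, so activator and repressor forms of Crem were not separated. Its call ended without chow replicate 1 (limma adjusted p = 0.102) and without high-fat replicate 1, 2 or 3 (0.0811, 0.0592 and 0.0879). Creb1 was at 40.5 and 44.4 CPM in chow and at 41.2, 39.5 and 49.8 CPM in high-fat islets (95% interval -0.25 to 0.3), and Atf1 at 20.6 and 20.1 against 17.6 to 19.6 CPM (interval -0.33 to 0.1). The coactivator Crtc2, which glucose and incretins bring to the nucleus of beta cells, was at 20.1 and 23.4 CPM in chow and at 17.3, 19.2 and 20.5 CPM in high-fat islets (interval -0.45 to 0.08). Crtc1 (-0.33 to 0.23) and Crtc3 (-0.07 to 0.45) also had intervals that held 0, and Crtc3 passed the threshold without chow replicate 3 (limma adjusted p = 0.044).

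The make-up of each class, as a share of its summed CPM per kb of exon, is free of the scaling between libraries. It is a description with no test, and exon length counts all annotated isoforms. Adcy5 took 2.33% and 1.96% of the cyclase total in chow and 12.4%, 12.4% and 18.8% in high-fat islets. Adcy6 took 45.8% and 46.4% in chow and 35.9% to 38.6% in high-fat islets, and Adcy7 13.5% and 4.8% against 0.942% to 1.62%. Adcy6 and Adcy9 together held most of the cyclase total in every library. Pde5a took 16.1% and 26.2% of the phosphodiesterase total in chow and 36.2% to 44.3% in high-fat islets, while Pde8a took 21.3% and 21.3% in chow and 13.3% to 15.4% in high-fat islets.

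**Figure D3:**
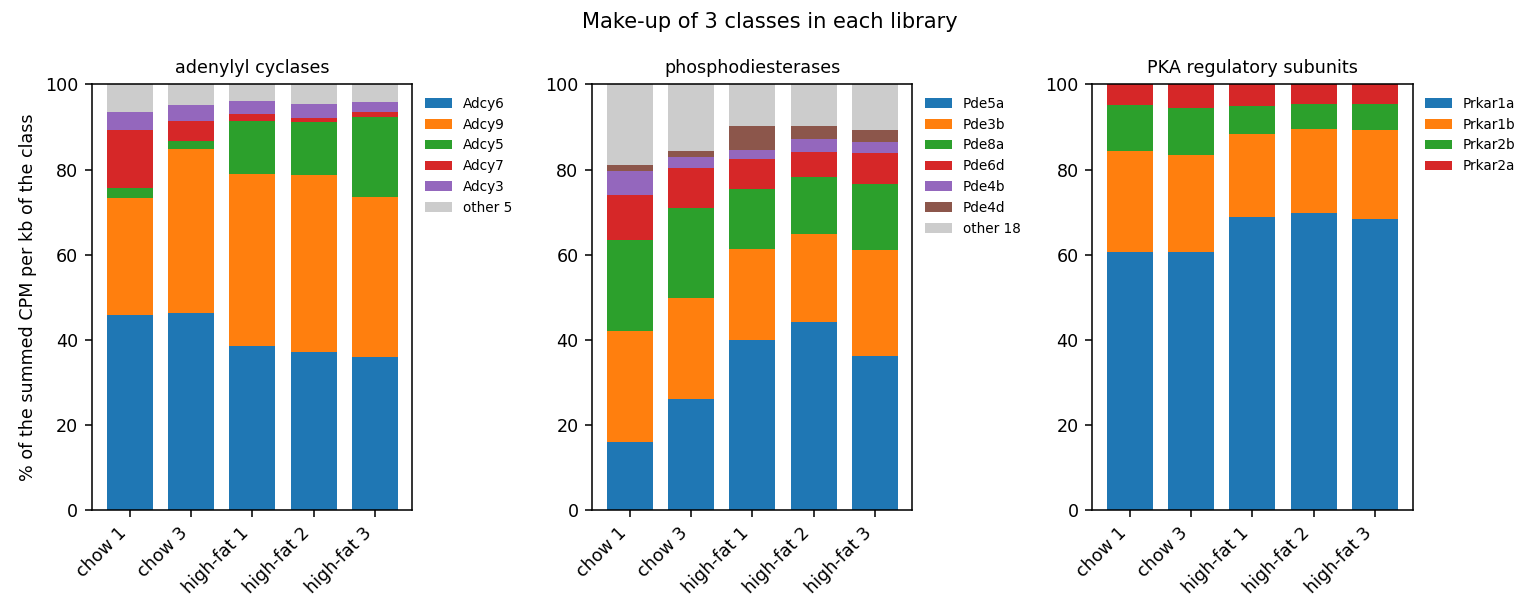
Share (percent) of the summed CPM per kb of exon held by the leading genes of the adenylyl cyclases, the phosphodiesterases and the PKA regulatory subunits in each of 5 libraries. The green Adcy5 band widens from about 2% in the chow libraries to between 12.4% and 18.8% in high-fat islets, the blue Pde5a band grows, and the green Prkar2b band narrows.

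The number of calls depended on how the libraries were scaled. When the gene CPM of each library were scaled to the same sum, 5 cAMP genes were higher and 5 lower (9.43% each), against 5.36% and 12.1% of all genes, and the median of all genes was -0.15. When library size was counted without the acinar and insulin genes, the median of all genes moved to -0.44, and 4 cAMP genes were higher and 32 lower (7.55% and 60.4%), against 4.5% and 55.5% of all genes. The members' counts thus moved with those of all genes. Higher in both were Adcy5, Pde4d, Pde5a and Akap6, and Adcy1 was higher in the former only (limma adjusted p = 0.128 in the latter). Adcy7, Akap12, Akap2, Pde2a and Prkar2b were lower in both. The differences of Prkaca (-0.17), Prkar1a (-0.11), Rapgef4 (-0.08) and Crem (-0.09) turned below 0 in the latter scaling with no call, and Pde3b (0.04), Pde10a (0.25), Adcy9 (0.18) and Akap13 (0.19) lost their calls. With the acinar level as a covariate, 5 were higher (Adcy5, Pde4d, Pde5a, Akap6 and Pde3b) and 4 lower (Akap12, Prkar2b, Adcy7 and Akap2), or 9.43% and 7.55%, against 5.69% and 3.54% of all genes. Median-ratio scaling gave 13 higher and 6 lower, or 24.5% and 11.3%, against 12.5% and 11.1% of all genes.

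**Figure D4:**
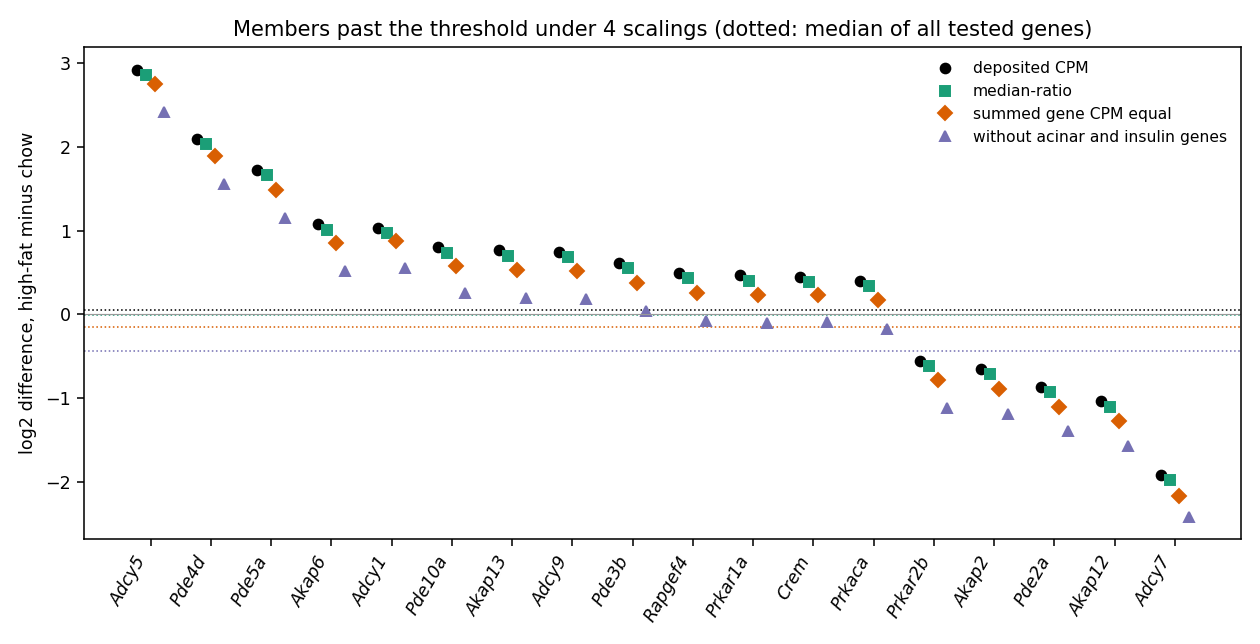
Log2 difference (high-fat minus chow) of the 18 cAMP genes past the threshold under 4 scalings of the libraries, with dotted lines at the median of all tested genes under each. The 5 genes on the right lie below 0 under each scaling, and Adcy5, Pde4d, Pde5a, Akap6 and Adcy1 lie above 0.5 under each.

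The inputs to the cyclases were read from a list of 24 receptors and 7 G protein alpha subunits. Of 22 receptors tested, 5 were higher and 6 lower, where 14.9% of all genes were called higher and 8.78% lower. Their median log2 difference was -0.09 against 0.05 for all genes. Among receptors that raise cyclic AMP, Glp1r, the receptor of the incretin GLP-1, was at 124 and 137 CPM in chow and at 169, 167 and 176 CPM in high-fat islets (0.39 ± 0.09, SE, limma adjusted p = 0.0228). Gipr, the receptor of the other incretin, was at 54.1 and 67.3 CPM in chow and at 39.7, 45.8 and 43.7 CPM in high-fat islets (-0.48 ± 0.12, SE, limma adjusted p = 0.0268). With library size counted without the acinar and insulin genes, both incretin receptors lay below their chow levels (-0.19 for Glp1r and -1.05 for Gipr). Glp1r lost its call without chow replicate 1 and without each high-fat replicate (limma adjusted p from 0.0659 to 0.0842), and Gipr without chow replicate 3 and each high-fat replicate (from 0.0605 to 0.0817). Of the peptide and adenosine receptors, Vipr1 (0.5 ± 0.12) was higher, and Vipr2 (-1.01 ± 0.19), Adcyap1r1 (-1.07 ± 0.21) and Adora2b (-0.89 ± 0.19) were lower (log2, SE).

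Among receptors that lower cyclic AMP, the adrenergic receptor gene Adra2c was at 0.324 and 0.419 CPM in chow and at 4.91, 4.66 and 6.84 CPM in high-fat islets (2.22 ± 0.19, SE, limma adjusted p = 0.000488). Cnr1, a cannabinoid receptor gene, was at 18.5 and 19 CPM in chow and at 6.37, 4.6 and 6.25 CPM in high-fat islets (-1.56 ± 0.15, SE, limma adjusted p = 0.000968). Both kept their calls in all 17 alternative analyses. Adra2a (0.98 ± 0.22) and Galr1 (0.58 ± 0.15) were higher and Npy1r (-0.75 ± 0.17) was lower. Of the G proteins, the stimulatory Gnas was at 329 and 343 CPM in chow and at 570, 577 and 556 CPM in high-fat islets (0.75 ± 0.11, SE, limma adjusted p = 0.00567). Its call ended with gene CPM scaled to the same sum (0.51, limma adjusted p = 0.273) and with library size counted without the acinar and insulin genes (0.17, limma adjusted p = 0.191). The inhibitory Gnaz (0.61 ± 0.11) was higher and the inhibitory Gnai1 (-0.84 ± 0.15) lower, while Gnai2, Gnai3, Gnao1 and Gnal did not pass the threshold. Under the same 2 scalings Gnaz was at 0.37 and 0.03 with no call (limma adjusted p = 0.296 and 0.805).

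Downstream, 1 of 6 PKA inhibitors and salt-inducible kinases was higher (Sik3, 0.44 ± 0.13) and 1 lower (Pkia, -0.58 ± 0.12, log2, SE). Pkia, a peptide inhibitor of the catalytic subunits, was at 24.4 and 25.7 CPM in chow and at 16.8, 18.6 and 14.3 CPM in high-fat islets. Of 7 other coactivators and related factors, Crebbp (1.1 ± 0.21) and Creb3 (0.53 ± 0.08) were higher. Of 20 genes known as CREB targets, 2 were higher and 5 lower, where 14.9% and 8.78% of all genes were called. Fos, an immediate early gene, was at 55.7 and 30.6 CPM in chow and at 11.3, 8.63 and 14 CPM in high-fat islets (-1.81 ± 0.27, SE, limma adjusted p = 0.00553), and Egr1, Fosb, Junb and Dusp1 were lower as well. Pcsk1, the prohormone convertase of insulin granules, was at 194 and 256 CPM in chow and at 341, 325 and 324 CPM in high-fat islets (0.56 ± 0.14, SE, limma adjusted p = 0.0275), and Irs2 was higher too (0.82 ± 0.09). Without chow replicate 1 and without each high-fat replicate in turn, Vipr1, Galr1, Npy1r, Sik3, Pcsk1 and Dusp1 lost their calls (limma adjusted p from 0.0505 to 0.196). Adra2a lost it without each high-fat replicate (limma adjusted p from 0.0505 to 0.0708). Without chow replicate 1, the log2 difference was 0.58 for Adra2a, 0.33 for Galr1, 0.36 for Pcsk1, -0.5 for Dusp1 and -1.32 for Fosb. Without chow replicate 1, Adora2b, Fosb, Pkia, Gnaz and Vipr2 also lost theirs (limma adjusted p from 0.0542 to 0.0866). Adora2b lost it without high-fat replicate 1 or 3 as well (0.0512 and 0.0579, limma adjusted p), Fosb without high-fat replicate 2 (0.0565) and Pkia without high-fat replicate 1 (0.0516). Over all 61 tested genes of these lists, 12 were higher and 13 lower, and 7 and 8 without chow replicate 1, where 7.95% and 4.65% of all genes were called. Without high-fat replicate 1, 2 or 3 the number higher was 6 each time, and without the first of these 8.67% of all genes were called higher and 4.65% lower. With library size counted without the acinar and insulin genes, 3 were higher (Adra2c, Crebbp and Irs2) and 33 lower, where 4.5% and 55.5% of all genes were called. With gene CPM scaled to the same sum, 3 were higher (Adra2a, Adra2c and Crebbp) and 18 lower, where 5.36% and 12.1% of all genes were called.

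Summed mesenchymal, endothelial and glial markers moved beside the lower cAMP genes. Of 8 mesenchymal markers, 6 were lower, and their sum ran from 146 to 240 CPM in chow and from 47.8 to 80.4 CPM in high-fat islets. The sum of 5 endothelial markers ran from 295 to 328 CPM in chow and from 234 to 287 CPM in high-fat islets (Pecam1 lower), that of 4 glial markers from 11.4 to 13.2 and from 5.21 to 6.76 CPM (2 lower), and that of 6 immune markers from 17.6 to 29.6 and from 19.3 to 25.1 CPM. None of these markers was at 0 in a library. Adcy7, Pde2a, Akap12 and Akap2, known also from vessels, fibroblasts or blood cells, fell beside the mesenchymal and endothelial sums, and the part of these cells in their differences was not tested. Beta cell markers, 4 of 10 called higher, moved beside the higher cAMP genes. Most of their sum came from 2 insulin genes (46264.8 to 64864.5 CPM in chow, 70252.9 to 77765.5 CPM in high-fat islets), and neither was called. Alpha cell markers, 1 of 5 called higher (Ttr), also lay higher in high-fat islets, at 11553 to 13258 CPM. In chow replicate 1 they summed to 10665 CPM and in chow replicate 3 to 2553 CPM. The part of beta and alpha cells was not tested either.

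Many of the higher cAMP genes are long. The median gene span, introns included, was 133 kb for the 13 higher genes, 93.1 kb for the 5 lower, 71.9 kb for the 35 not called and 25.3 kb for all 13704 protein-coding genes tested. Pde4d spans 1504 kb, the most of any cAMP gene here. Among all protein-coding genes spanning at least 300 kb, 22.3% were called higher, against 13.8% to 16.4% in the shorter classes, and 3 of 7 cAMP genes of that span were higher. Between 100 and 300 kb, 15.6% of all genes and 7 of 18 cAMP genes were higher. The part of gene span in the differences was not tested. After trends with exon length and GC content were removed, 12 cAMP genes were higher and 7 lower, or 22.6% and 13.2%, against 11.7% and 9.74% of all genes fitted.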

How the data were processed

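Islet RNA from 3 chow and 3 high-fat samples had been extracted with Trizol, per the labels' protocols. The submitters' processing notes name Partek. Its version, as well as the aligner, build, read assignment and strand, is not given in the sources used here. What was deposited is 1 table that holds a signal per gene that was read as CPM plus 1 from the values: the lowest value of each column is 1 and low values lie on multiples of 1 step, which gave the depth. Only 64.6% to 70% of values of up to 20 reads were whole within 0.1, so no count test was used.

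The 5 distinct libraries were compared on the scale of log2(CPM + 1) by limma-trend (limma 3.58.1, R 4.3.3). Genes entered at 0.5 CPM or more, averaged over libraries. This scale understates fold changes of low genes. The Benjamini-Hochberg threshold was 0.05 over 16939 genes. Replicates were numbered in deposit order. Separate animals are not stated, so a p-value here reflects only how these samples vary, which may be technical. Names were matched to GENCODE M21 for lengths, which may not be the authors' annotation. Alternatives were 3 scalings, 2 pseudocounts, 2 filters, no variance trend, quality weights, an acinar covariate, length and GC trends, all 6 columns and leaving out each library. Named were all members past the threshold, a fixed set of other members, and listed genes past the threshold. Pde1a, Pde1b, Pde3a, Pde4c, Pde7b, Pde6d, Pde8a, Akap7, Akap8, Akap8l, Akap9, Akap10, Akap11, Adcy2, Adcy4 and Adcy10 were added after their values were seen. The members and lists were chosen with earlier results of these data known.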

Additional observations from a re-analysis of the deposited data

How the results depend on the processing

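With the deposited CPM, 13 cAMP genes were higher and 5 lower (24.5% and 9.43%), against 14.9% and 8.78% of all genes. With gene CPM scaled to the same sum 5 were higher (9.43%), against 5.36% of all genes. A library size that omits acinar and insulin genes gave 4 higher (7.55%), against 4.5%. No filter gave 1 higher (1.59%), against 1.15%, and the acinar covariate 5 (9.43%), against 5.69%. The number higher was 6 to 9 (11.3% to 17%) when 1 high-fat library was left out, against 7.01% to 8.67% of all genes. The number lower was 32 (60.4%) without acinar and insulin genes in the library size, against 55.5% of all genes. No filter gave 1 lower (1.59%), against 0.772%, and all 6 columns gave 9 (17%), against 16.7% of all genes. When 1 high-fat library was left out it was 4 to 5 (7.55% to 9.43%), against 4.07% to 4.65% of all genes. Of 61 tested genes in the other pathway lists, 12 were higher and 13 lower, where 14.9% and 8.78% of all genes were called. The number higher was 3 with gene CPM scaled to the same sum, 3 without acinar and insulin genes, 4 with no filter, 5 with the acinar covariate, 19 with all 6 columns, and 6 to 18 when 1 library was left out. The number lower was 33 without acinar and insulin genes, 1 with no filter, 6 with the acinar covariate, 22 with all 6 columns, and 8 to 14 when 1 library was left out. With gene CPM scaled to the same sum 18 were lower, where 5.36% of all genes were called higher and 12.1% lower. Over all genes, 4.5% were higher and 55.5% lower without acinar and insulin genes. No filter gave 1.15% and 0.772% of all genes, the acinar covariate 5.69% and 3.54%, and all 6 columns 25% and 16.7%. The cause of these shifts was not tested. The numbers with no filter come from a table of 48321 rows, most of them near 0.

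Without acinar and insulin genes in the library size, differences turned below 0, with a call in 1 of the 2 analyses, for Adcy6 (-0.41), Akap1 (-0.39), Creb1 (-0.54), Crem (-0.0897), Crtc3 (-0.37), Prkaca (-0.17), Prkacb (-0.41), Prkar1a (-0.11), Prkar1b (-0.497), Prkar2a (-0.39), Rapgef4 (-0.0774), Glp1r (-0.19), Vipr1 (-0.0728), Sik3 (-0.13), Creb3 (-0.035) and Pcsk1 (-0.0163), relative to a median of all genes of -0.44. Others that were above 0, among them Pde1c (-0.28), Pde4b (-0.42) and Pde7a (-0.35), turned below 0 with no call in either. Of the 18 called cAMP genes, Adcy5, Adcy7, Akap12, Akap6, Pde4d, Pde5a and Prkar2b kept their calls in all alternatives but the one with no filter, where Prkar2b alone of these 7 kept it. The number of chow libraries, 2, limits the precision. No paired analysis was possible because the labels give no replicate numbers shared by the diets.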
